A study of Bos taurus with 7 samples.

Results

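The 8 lymphatic vessel markers LYVE1, PDPN, STAB1, STAB2, PROX1, TBX1, MMRN1 and RELN were followed in bovine luteal tissue on day 6 and day 4 of the estrous cycle. They were chosen by name and not by a rule on measured values, though with earlier results of these data known. All 8 have 1 entry each among the 19539 entries of the authors' deposited table. The corpus luteum is the progesterone-secreting gland into which a follicle turns after ovulation.

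The samples are whole snap-frozen luteal tissue (Bos taurus), with 4 libraries from day 6 and 3 from day 4. Per the labels, every cow carried a progesterone device for 7 days, received 25 mg of PGF2A and 86 mcg of GnRH to synchronise ovulation, and was otherwise untreated. Stranded mRNA libraries were sequenced with 100 nt single reads. Genes of steroidogenic luteal cells were abundant. Over 12 genes the summed mean was 27186 TPM on day 6 and 14350 TPM on day 4, with SULT1E1 listed at 0 on day 6. The oxytocin gene OXT alone held 10393 TPM on day 6 and 8052 TPM on day 4 in the authors' deposited table. The glands of day 4 were obtained after slaughter and those collected after day 6 by colpotomy, that is through the vaginal wall. The route used on day 6 itself is not stated, so a difference in route cannot be told apart from a difference in day. Nor do the labels say whether each library came from a separate cow, and the p-values measure only the spread between these samples, which may be technical.

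Lymphatic vessels return fluid, lipids and leukocytes from a tissue to the blood. In mammals their endothelium arises from veins when SOX18 and NR2F2 switch on PROX1, the transcription factor that sets lymphatic identity, and it grows in response to VEGFC and VEGFD through the receptor FLT4 and its partner NRP2. Several of these markers are also made elsewhere: LYVE1 and STAB1 by some macrophages, STAB1 and STAB2 by sinusoidal endothelium, PDPN by fibroblastic stroma and mesothelium, and MMRN1 by platelets and blood endothelium.

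Levels are the authors' mean TPM of a day, a share of transcripts scaled by transcript length, so genes can be compared with each other. The table gives 1 mean per day and no value per library, so the spread behind a mean and the overlap of the libraries are not known. The labels give about 35 M reads per library as the aim of the sequencing (M, 10 to the sixth), and the reads counted in each library are not known. Each log2 fold change compares day 6 with day 4 and is the product of the authors' Wald statistic and its standard error (SE), and the intervals are 95% Wald intervals. A gene is said to be called, or to have risen or fallen, where the adjusted p of the authors' deposited table is under 0.05.

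The markers did not move together. LYVE1 rose on day 6, MMRN1, TBX1, RELN and STAB1 fell, and PROX1, PDPN and STAB2 were not called. Of the 8 markers, 1 was called higher, against 4.12% of all 19485 entries tested, and 4 were called lower, against 10.4%. In either direction 14.5% of all entries were called. The median log2 fold change of the 8 was -1.03, and that of all entries tested was -0.04. In whole tissue, fewer cells of a type and less RNA per cell cannot be told apart.

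**Figure D1:**
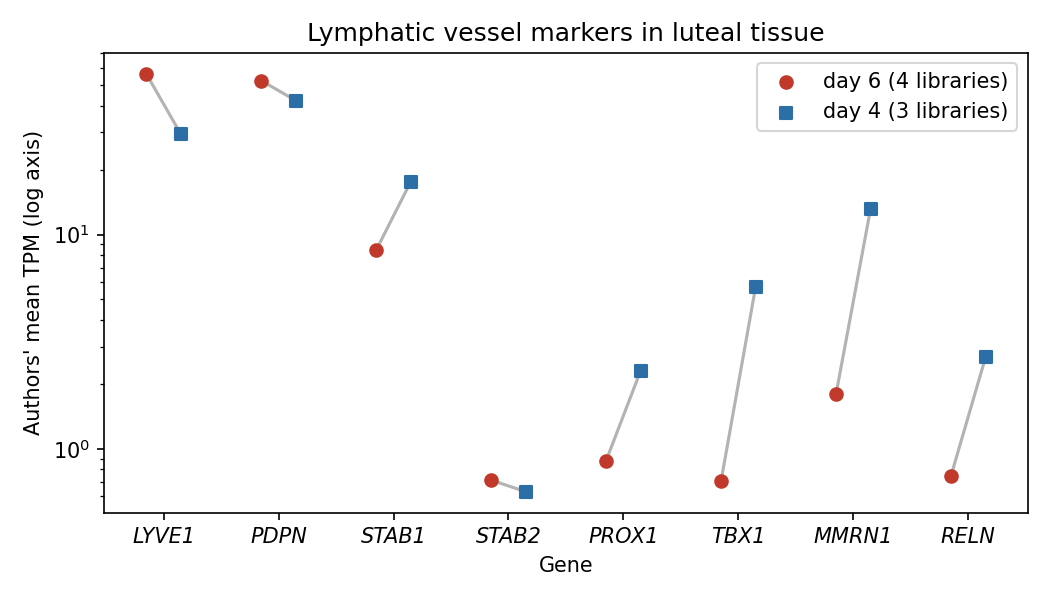
Authors' mean TPM (log axis) of each marker on day 6 (circles, 4 libraries) and day 4 (squares, 3 libraries), joined by a line; no spread between libraries is available. LYVE1 stood at 56.2 TPM on day 6 and 29.4 TPM on day 4, while MMRN1, TBX1, RELN, PROX1 and STAB1 have their day 6 point below their day 4 point.

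Among the membrane receptors, LYVE1, the hyaluronan receptor of initial lymphatic vessels, averaged 56.2 TPM on day 6 and 29.4 TPM on day 4 in the authors' deposited table. Its log2 fold change was 1.16 ± 0.16 (SE), with an adjusted p = 1.22e-09 from the authors' deposited table and a fold of 2.23 with an interval of 1.78 to 2.79. By p-value LYVE1 stood at rank 35 of all 19485 entries and at rank 14 among those with a positive fold change. Its day 6 mean lay above those of 90.7% of all entries and its day 4 mean above 81.5%. The standard error of LYVE1 was below the median of entries of like level. The 3286 entries whose mean TPM lies within 2-fold of its own had a median SE of 0.22, and 26% of them had a smaller SE.

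PDPN, podoplanin, a mucin-like glycoprotein of lymphatic endothelium that binds the platelet receptor CLEC1B, was abundant on both days. It averaged 52.3 TPM on day 6 and 42.2 TPM on day 4 in the authors' deposited table, without a call (log2 0.49 ± 0.30, adjusted p = 0.273). The interval, -0.10 to 1.08, spans no change and a fold of up to 2.12. Its SE exceeded those of 75.6% of the 3114 entries within 2-fold of its mean TPM.

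STAB1, a scavenger receptor that takes up modified lipoproteins and matrix fragments, fell. It averaged 8.47 TPM on day 6 and 17.6 TPM on day 4 in the authors' deposited table (log2 -0.87 ± 0.25, adjusted p = 0.00828). STAB2, its relative that clears hyaluronan from the circulation in liver, spleen and lymph node sinusoids, was scarce, with 0.713 TPM on day 6 and 0.63 TPM on day 4 in the authors' deposited table. The authors' deposited table does not call it (log2 0.50 ± 0.99, adjusted p = 0.789), and its interval runs from -1.44 to 2.43. A change of STAB2 in either direction, up to several-fold, is therefore compatible with these libraries. The level of STAB1 was 11.9 times that of STAB2 on day 6 and 27.98 times on day 4.

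Both transcription factors among the markers had lower means on day 6. TBX1, a T-box factor needed for lymphatic vessel growth in the mouse, fell to 0.71 TPM on day 6, against 5.7 TPM on day 4, in the authors' deposited table (log2 -2.86 ± 0.76, adjusted p = 0.00321). Its interval of -4.35 to -1.37 corresponds to a level on day 4 between 2.59 and 20.4 times that on day 6. PROX1 averaged 0.881 TPM on day 6 and 2.31 TPM on day 4 in the authors' deposited table and missed the threshold (log2 -1.20 ± 0.47, adjusted p = 0.062). The PROX1 interval, -2.11 to -0.29, lies below 0 before adjustment for the number of genes tested.

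The secreted markers both fell. MMRN1, multimerin 1, a large carrier protein of coagulation factor V, stood at 1.8 TPM on day 6 and 13.2 TPM on day 4 in the authors' deposited table (log2 -2.74 ± 0.76, adjusted p = 0.00522). RELN, reelin, a glycoprotein that in mouse lymphatics promotes the covering of collecting vessels with smooth muscle, stood at 0.749 TPM on day 6 and 2.67 TPM on day 4 in the authors' deposited table (log2 -1.66 ± 0.54, adjusted p = 0.0228). The estimates for MMRN1 and TBX1 were imprecise for their level: 96.7% of the 5052 entries within 2-fold of the mean TPM of MMRN1 had a smaller SE, and 90.9% of the 3244 such entries of TBX1.

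The order of the levels changed as well. On day 6 it was LYVE1, PDPN, STAB1, MMRN1, PROX1, RELN, STAB2 and TBX1, and on day 4 it was PDPN, LYVE1, STAB1, MMRN1, TBX1, RELN, PROX1 and STAB2. On day 6 PROX1, RELN, STAB2 and TBX1 all lay between 0.71 and 0.881 TPM, and whether such neighbours differ cannot be said without the spread between libraries. Summed over the 8 markers, the authors' means came to 121.8 TPM on day 6 and 113.8 TPM on day 4. LYVE1 and PDPN made up 89.1% of that sum on day 6 and 62.96% on day 4. MMRN1, RELN, TBX1 and PROX1 together made up 3.4% on day 6 and 20.99% on day 4. The ratio of LYVE1 to PROX1 was 63.8 on day 6 and 12.7 on day 4, and that of LYVE1 to MMRN1 was 31.2 on day 6 and 2.23 on day 4. These ratios describe group means and were not tested.

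**Figure D2:**
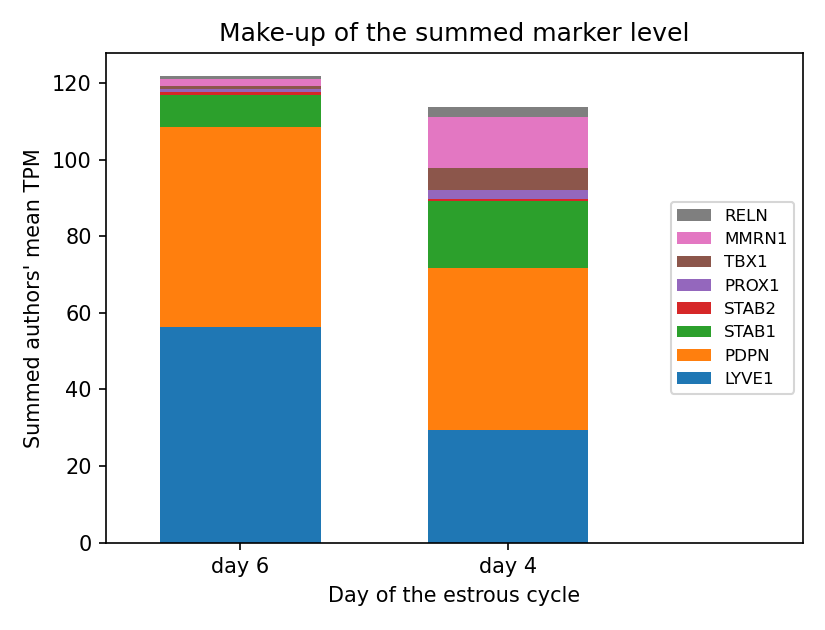
Authors' mean TPM of the 8 markers stacked for day 6 (left) and day 4 (right), from LYVE1 at the bottom to RELN at the top. The totals of 121.8 TPM on day 6 and 113.8 TPM on day 4 are close, while LYVE1 and PDPN fill 89.1% of the bar on day 6 and 62.96% on day 4.

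Scaling bore on some calls. Over 10599 entries of at least 5 TPM, a Wald fold change exceeded the log2 ratio of mean TPM by a median of 0.21. On the TPM scale, that is with this offset taken off, PROX1 was also called lower (log2 -1.42, adjusted p = 0.0159, with 0.0159 to 1 over all its alternatives), which makes 5 markers lower, against 19.7% of all entries, and 1 higher, against 1.53%. Mitochondrially encoded transcripts took 29.2% of the mean TPM on day 6 and 10.3% on day 4. With these left out of the TPM total, the non-mitochondrial scale, the offset is -0.13. There 1 marker was called higher, against 9.48% of all entries, and 4 lower, against 8.19%. When the null was a change of up to 1.5-fold, the call of LYVE1 held and those of MMRN1, TBX1, RELN and STAB1 did not. Of all entries, 0.231% were called higher under that null and 2.35% lower. Under a t distribution (5 degrees of freedom) 0 of all entries were called. Before adjustment 6 markers had p under 0.05 by it, LYVE1 higher and 5 lower, as had 3133 of all 19485 entries.

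Among the signals and receptors that drive lymphatic growth, NRP2 fell to 13.4 TPM on day 6, against 53.1 TPM on day 4, in the authors' deposited table (log2 -1.78 ± 0.36, adjusted p = 5.8e-05). FLT4 averaged 6.54 TPM on day 6 and 12.4 TPM on day 4 in the authors' deposited table and was not called (log2 -0.74 ± 0.34, adjusted p = 0.131), though it was on the TPM scale. VEGFC was abundant and close on both days, at 33.7 TPM on day 6 and 36.1 TPM on day 4 in the authors' deposited table (log2 0.11 ± 0.44, adjusted p = 0.895), and its interval of -0.76 to 0.98 does not show that it was constant. VEGFD was scarce, at 0.425 TPM on day 6 and 1.07 TPM on day 4 in the authors' deposited table (adjusted p = 0.175). Of 22 lymphangiogenic signalling genes 0 were called higher and 5 lower (22.7%, against 10.4% of all entries), namely NRP2, the TIE receptor ligand ANGPT2, the sphingosine phosphate receptor S1PR1, the growth factor HGF and the peptide adrenomedullin, ADM, whose call was lost on the non-mitochondrial scale. The median of that list was -0.23, and 8 were called lower on the TPM scale.

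**Figure D3:**
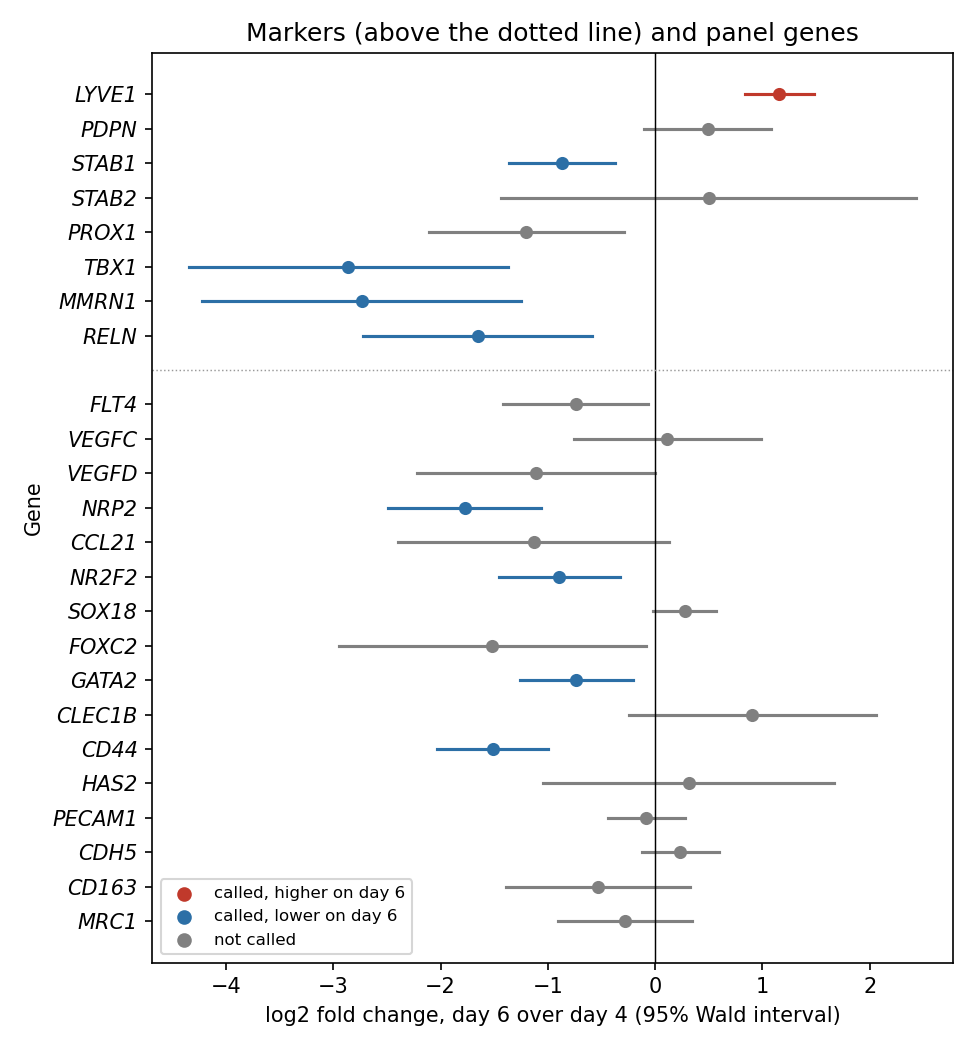
Log2 fold change of day 6 over day 4 with its 95% Wald interval for the 8 markers (above the dotted line) and 16 panel genes (below it), red where called higher on day 6, blue where called lower and grey where not called. LYVE1 is the single red point, at 1.16, and the TBX1 and MMRN1 intervals are wide and lie wholly below 0.

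Some of the genes listed as lymphatic transcription factors fell beside TBX1. NR2F2, the venous factor that acts with PROX1, fell to 74.97 TPM on day 6, against 161 TPM on day 4, in the authors' deposited table (log2 -0.89 ± 0.29, adjusted p = 0.0203), and is also strongly expressed by theca and stromal cells. GATA2, a factor of lymphatic valves, fell in the authors' deposited table (3.12 TPM on day 6 and 6.09 TPM on day 4, adjusted p = 0.0454), a call that was lost on the non-mitochondrial scale. FOXC2, another valve factor, was scarce and not called in the authors' deposited table (0.303 TPM on day 6 and 1.01 TPM on day 4, adjusted p = 0.147). SOX18 stood at 38.9 TPM on day 6 and 37.6 TPM on day 4 in the authors' deposited table (log2 0.27 ± 0.15, adjusted p = 0.208), and was called higher on the non-mitochondrial scale (log2 0.40). Leaving PROX1 and TBX1 aside, 0 of the other 11 factors tested were called higher and 4 lower, with a median of -0.73. Of all entries 4.12% were called higher and 10.4% lower. KLF4 and NFATC1 were the remaining factors called, both lower.

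Among 20 further lymphatic endothelial genes tested, 1 was called higher and 6 lower, with a median of -0.72. The shares of all entries were 4.12% higher and 10.4% lower. SEMA3D, a semaphorin, rose beside LYVE1 (10.1 TPM on day 6 and 5.34 TPM on day 4 in the authors' deposited table, log2 1.15 ± 0.23, adjusted p = 5.11e-05). CCL21, the chemokine with which lymphatic endothelium draws in dendritic cells and T cells, averaged 61.8 TPM on day 6 and 148 TPM on day 4 in the authors' deposited table and was not called (log2 -1.13 ± 0.64, adjusted p = 0.229). ACKR4, a receptor that removes such chemokines, fell to 0.012 TPM on day 6, against 0.616 TPM on day 4, in the authors' deposited table (log2 -5.43 ± 1.18, adjusted p = 0.000187). It was thus scarce on both days, under 1 TPM, and the size of its change is imprecise. The tight junction gene CLDN5 fell to 15.6 TPM on day 6, against 60.1 TPM on day 4, in the authors' deposited table (log2 -1.75 ± 0.46, adjusted p = 0.0027). ANGPT2, FXYD6, PKHD1L1 and ECSCR were the others called lower, the last not on the non-mitochondrial scale. Genes of leukocyte traffic through lymphatics gave 0 calls higher and 8 lower of 20 (40%, against 10.4% of all entries), with a median of -0.76. They included the chemokine CXCL12, at 34.6 TPM on day 6 and 285 TPM on day 4 in the authors' deposited table (adjusted p = 9.9e-05), and the adhesion molecule CD99. The smallest adjusted p of this list in the authors' deposited table were those of the receptors IL7R (7.64e-06), which averaged under 1 TPM, and ACKR3 (1.12e-05).

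Lymphatic valve and junction genes went both ways, 3 of 23 higher and 6 lower, with a median of 0.16 that turned to -0.05 on the TPM scale. In either direction 39.1% of them were called, against 14.5% of all entries. CLDN11, a claudin of tight junctions, fell to 3.27 TPM on day 6, against 38.1 TPM on day 4, in the authors' deposited table (log2 -3.42 ± 0.65, adjusted p = 1.4e-05). The atypical cadherins FAT4 and DCHS1, the planar polarity gene VANGL2, CLDN5 and SEMA3G fell too. The semaphorin receptors NRP1 and PLXND1 and the connexin GJA1 were called higher, calls that were lost on the TPM scale.

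**Figure D4:**
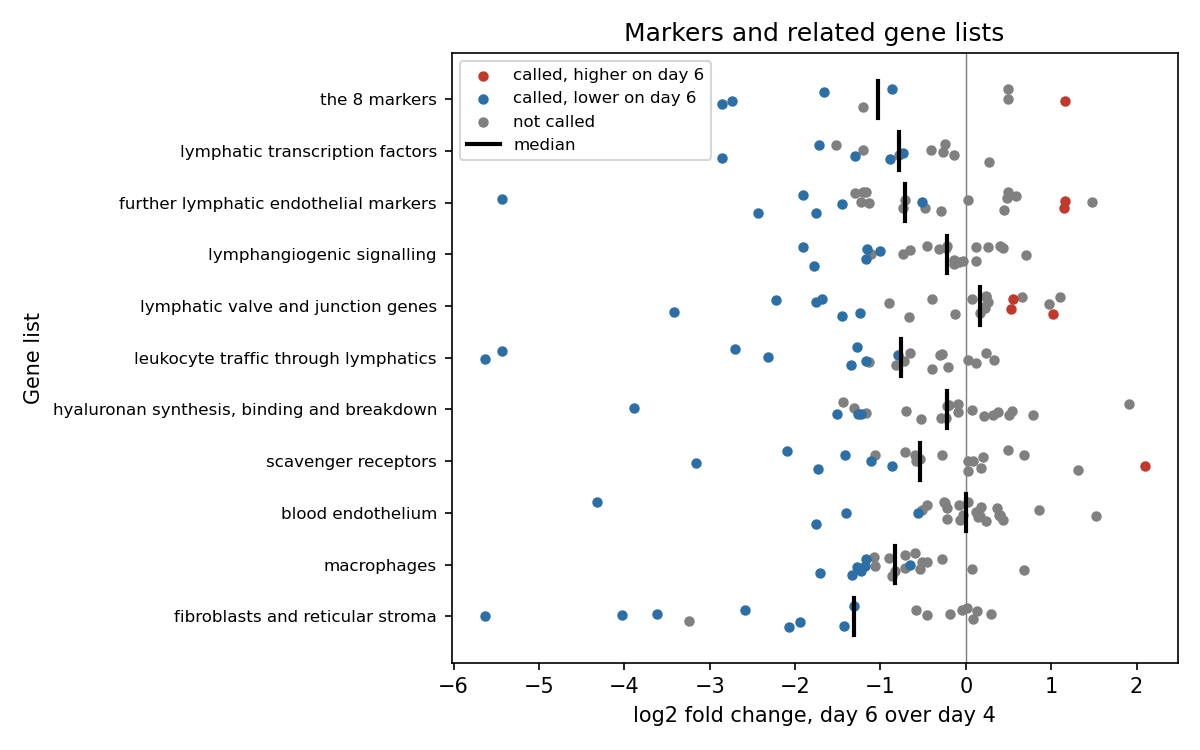
Log2 fold change of day 6 over day 4 for each gene tested (points, spread vertically for legibility) in the 8 markers and 10 related gene lists; red points were called higher on day 6, blue points lower, grey points were not called, and black bars are medians. The medians are -1.03 for the markers, -0.00 for blood endothelium, -0.83 for macrophages and -1.31 for fibroblasts and reticular stroma. Markers that also belong to a list are plotted again in that list and enter its median.

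General endothelial genes were mostly not called, as were most of all entries. The share called was 15.4% of blood endothelial markers, against 14.5% of all entries. CDH5, the endothelial cadherin, averaged 48.3 TPM on day 6 and 48.2 TPM on day 4 in the authors' deposited table (log2 0.23 ± 0.18, adjusted p = 0.408). PECAM1 averaged 41.1 TPM on day 6 and 51.3 TPM on day 4 in the authors' deposited table (log2 -0.08 ± 0.18, adjusted p = 0.812). Of 26 blood endothelial markers 0 were called higher and 4 lower, with a median of -0.00, which was -0.22 on the TPM scale and 0.12 on the non-mitochondrial scale. The genes called were ACKR1, CLDN5, SELP and EGFL7, the last not on the non-mitochondrial scale. Relative to CDH5, the mean level of LYVE1 was 1.16 on day 6 and 0.611 on day 4, and that of PROX1 was 0.0183 on day 6 and 0.048 on day 4. The difference between the markers and CDH5 was not tested.

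Some macrophage genes fell beside STAB1. Of 21 macrophage markers 0 were called higher and 7 lower (33.3%, against 10.4% of all entries), with a median of -0.83. On the TPM scale 12 were called lower, against 19.7% of all entries, and on the non-mitochondrial scale 5, against 8.19%. CSF1R, the growth factor receptor of macrophages, stood at 2.96 TPM on day 6 and 8.69 TPM on day 4 in the authors' deposited table (adjusted p = 0.0153). CD14, TYROBP, FCER1G, C1QC and MAF fell as well, the last not on the non-mitochondrial scale. CD163 and MRC1, scavenger and mannose receptors of tissue macrophages, were not called in the authors' deposited table (adjusted p = 0.436 and 0.604). The summed mean of the list was 103.2 TPM on day 6 and 234.6 TPM on day 4, with MARCO listed at 0 on day 4. STAB1 was 1.78 times CD163 on day 6 and 2.16 times on day 4, while LYVE1 was 11.8 times CD163 on day 6 and 3.6 times on day 4. The part of macrophages in the levels of STAB1 and LYVE1 was not tested.

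Hyaluronan, the ligand of LYVE1 and STAB2, is made by the HAS enzymes. HAS2 was low on both days, at 0.118 TPM on day 6 and 0.109 TPM on day 4 in the authors' deposited table (adjusted p = 0.814). HAS1 and HAS3, named after their values were seen, were not called in the authors' deposited table (adjusted p = 0.771 and 0.252). HAS3 was the highest of the HAS genes, at 1.07 TPM on day 6 and 1.81 TPM on day 4. CD44, the other main hyaluronan receptor of cell surfaces, fell to 9.09 TPM on day 6, against 30.2 TPM on day 4, in the authors' deposited table (log2 -1.51 ± 0.26, adjusted p = 1.43e-06), opposite to LYVE1. Of 23 hyaluronan genes 0 were called higher and 4 lower (17.4%, against 10.4% of all entries), with a median of -0.22. Besides CD44 these were ITIH5, ITIH4 and SPAM1, of which ITIH4 and SPAM1 were not called on the non-mitochondrial scale, where 1 gene was higher and 2 lower. SPAM1 averaged under 1 TPM on both days. Among 19 scavenger receptors other than the stabilins, 1 was called higher, the lipoprotein receptor SCARB1, and 5 lower (FCGR2B, MEGF10, SCARF2, COLEC12 and SCARA5). Of all entries 4.12% were called higher and 10.4% lower. FCGR2B and MEGF10 averaged under 1 TPM over all libraries. SCARB1 lost its call on the TPM scale.

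Most partners of the other markers were not called, which also holds for all entries, of which 14.5% were called. The share called was 20% of podoplanin partners, 13.6% of reelin pathway genes and 23.1% of multimerin partners. CLEC1B, the receptor of PDPN, stood at 3.62 TPM on day 6 and 2.35 TPM on day 4 in the authors' deposited table (adjusted p = 0.303). The signalling proteins downstream of it, SYK and LCP2, fell, and of 15 podoplanin partners 0 were called higher and 3 lower, with a median of 0.29. On the non-mitochondrial scale 3 were called higher, namely PLCG2, RDX and LGALS8, and 3 lower. The reelin receptors LRP8 and VLDLR, named after their values were seen, were not called in the authors' deposited table (adjusted p = 0.248 and 0.789). Of 22 reelin pathway genes 1 was called higher, PAFAH1B1, and 2 lower, THBS1 and PLAT. The median of that list was -0.02, with 0 higher and 7 lower on the TPM scale and 2 higher and 1 lower on the non-mitochondrial scale, where PLAT was not called. Of 13 multimerin partners 0 were called higher and 3 lower: ITGB3, a subunit of the receptor to which multimerin binds, and the related matrix proteins EMILIN1 and EMILIN2. On the TPM scale 5 were called lower, and on the non-mitochondrial scale 2, without EMILIN1.

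Genes of fibroblastic stroma, another source of PDPN, fell in part. Of 17 fibroblast and reticular stroma genes 0 were called higher and 8 lower (47.1%, against 10.4% of all entries), with a median of -1.31. PDGFRA, a receptor of platelet-derived growth factors on fibroblasts, stood at 34.8 TPM on day 6 and 151 TPM on day 4 in the authors' deposited table (log2 -1.95 ± 0.42, adjusted p = 0.000134). TCF21, ISLR, FBLN1, DCN and THY1 fell too, while 9 genes of the list were not called, 4 of them with a positive fold change. The summed mean of the list was 10393 TPM on day 6 and 13071 TPM on day 4, with no member at 0. Much of it came from collagen genes that were not called, named after their values were seen. COL1A1, COL1A2 and COL3A1 averaged 3352, 2442 and 2981 TPM on day 6, and 3734, 2905 and 2878 TPM on day 4, in the authors' deposited table. The part of these cells in the level of PDPN was not tested.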

How the data were processed

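The deposited data are 1 table of the authors with a mean TPM per day and a Wald test per entry. No column holds values of single libraries. Per the submitters' processing notes, FastQC, DESeq2 and the build ARS-UCD1.2 were used. No source used here names the aligner, the counter or the annotation. TPM was read from the deposited values, since each day's column sums to 999999. The authors' log2 fold change equals the log2 ratio of mean TPM plus 1 in all 19539 entries within 1e-06 and shrinks changes of scarce genes. The fold change used here is therefore the authors' score, the Wald statistic, times its deposited standard error. Adjusted p-values are the authors' own, Benjamini-Hochberg over 19485 entries, recomputed with SciPy 1.17.1. The other 54 entries were left out.

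The 8 markers all passed into the test, and 7 average at least 1 TPM. Beside them stand 17 lists with 281 genes, of which 270 were tested, and a panel of 16 genes. Some genes (39) are on more than 1 list. The named genes are the markers, the panel, and the called genes of each list. Where more than 6 were called, those named include the 6 with the smallest adjusted p. Markers, lists and tests were chosen with earlier results of these data known. Of the lists, 1 gene is left out and not reported here. No list was tested as a set. Genes were matched by the symbol in the table. No coordinates or sequences are given. The planned comparison of marker proteins was not run. Interval and adjustment code was tested on simulated data. Alternatives were 3 other scalings, pseudocounts of 0.1, 0.5 and 1, a threshold of 0.01, testing against a 1.5-fold change, the t distribution (5 degrees of freedom) and a floor of 1 TPM.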

Additional observations from a re-analysis of the deposited data

How the results depend on the processing

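The direction of all 8 markers held under each alternative run. The threshold of 0.01, the 1.5-fold test, the t distribution and the floor of 1 TPM leave the log2 fold change as it is. The other scalings shift every gene by 1 fixed amount, at most 0.21 in size, which is below the smallest marker change (PDPN, 0.49). A pseudocount keeps the sign of the difference between the day means. The directions were thus fixed by the deposited values, and their holding is no sign of robustness. LYVE1 ranged from 0.91 to 1.28 on the log2 scale, MMRN1 from -2.95 to -2.34, TBX1 from -3.08 to -1.97, RELN from -1.87 to -1.07, STAB1 from -1.08 to -0.74 and PROX1 from -1.42 to -0.82. Against a fold of 1.5 the Wald test called 1 marker higher, LYVE1, against 0.231% of all entries, and 0 lower, against 2.35%. That test gave adjusted p = 0.131 for MMRN1 and 0.0894 for TBX1. An adjusted p under 0.01 lost RELN. With the t distribution (5 degrees of freedom) 0 markers were called higher and 0 lower, and 0 of all entries. At an unadjusted p under 0.05 it had 1 marker higher and 5 lower, and 3133 of all entries. Over these alternatives the adjusted p ran from 8.21e-12 to 0.245 for LYVE1, from 0.00139 to 0.26 for MMRN1 and from 0.000845 to 0.256 for TBX1. Of the related lists, counts of lower calls moved by over 1.5 times on the TPM scale for lymphangiogenic signalling (8, against 5), macrophages (12, against 7), the reelin pathway (7, against 2), multimerin partners (5, against 3) and mesothelium (3, against 1). On the non-mitochondrial scale they moved so for hyaluronan genes (2, against 4), the reelin pathway (1, against 2) and stabilin ligands (4, against 7). Counts of higher calls on the TPM scale and the non-mitochondrial scale were 0 and 5 for valve and junction genes, against 3, 1 and 5 for steroidogenic genes, against 3, 0 and 3 for podoplanin partners, against 0, and 0 and 1 for lymphatic transcription factors, against 0. STAB2 averages under 1 TPM and has no value under that minimum. No paired analysis was possible because the table holds no values of single libraries, and for that reason no library could be left out in turn. No marker has a repeated entry, so no other entry could be tried. Without the reads counted per library, no counting limit was set for scarce markers such as STAB2, PROX1, TBX1 and RELN.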

Other observations

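Some genes listed as stabilin ligands or for the clearance of dying cells, a task in which stabilins take part, fell on day 6. Of 18 stabilin ligands and phosphatidylserine recognition genes 1 was called higher and 7 lower, with a median of -0.50. In either direction 44.4% were called, against 14.5% of all entries. GAS6, the bridging ligand of the TAM receptors, fell to 15.5 TPM on day 6, against 106 TPM on day 4, in the authors' deposited table (log2 -2.61 ± 0.49, adjusted p = 8.31e-06). CHI3L1 and GDF15 of the same list fell with it, and the integrin subunit ITGB5 rose, a call lost on the TPM scale. The clearance genes that follow were named after their values were seen. The TAM receptors AXL and TYRO3 were called lower in the authors' deposited table (adjusted p = 0.0193 and 0.0424), calls lost on the non-mitochondrial scale. The third TAM receptor, MERTK, was not called (adjusted p = 0.994), nor were MFGE8, TIMD4 and GULP1.

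ACKR1, the chemokine-binding receptor of venules, fell to 0.122 TPM on day 6, against 2.77 TPM on day 4, in the authors' deposited table (log2 -4.32 ± 0.73, adjusted p = 4.73e-07), and the ratio of CLDN5 to CDH5 was 0.323 on day 6 and 1.25 on day 4.

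Markers of other cell types were set beside the 14.5% of all entries called. Of 11 mesothelial genes 0 were called higher and 1 lower, WT1, with a median of -0.58, and LRRN4 was listed at 0 on day 6. Of 11 platelet and megakaryocyte genes 0 were called higher and 2 lower, THBS1 and SELP, with a median of -0.26, and both are also made by endothelium. The platelet gene list summed to 74.6 TPM on day 6 and 243.7 TPM on day 4, of which THBS1 alone held 66.1 TPM on day 6 and 231 TPM on day 4 in the authors' deposited table, and 2 of its genes were listed at 0 on day 4. Of 12 genes of steroidogenic luteal cells 3 were called higher, STAR, FDXR and SCARB1, and 0 lower, with a median of 1.36. Their part in the marker levels was not tested.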
